A study of Mus musculus with 8 samples.

Results

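The Slc25 genes encode the mitochondrial carrier family, the membrane proteins that move metabolites between the cytosol and the mitochondrial matrix. Members were taken by symbol, as every gene named Slc25a followed by digits alone, which gave 47 of the 33641 genes in the deposited data. Poly(A) RNA-seq of interscapular brown adipose tissue (BAT) was available for 8 C57BL/6 mice aged 28 weeks, and the values of each member were compared between control mice and mice in which HuR, an RNA binding protein encoded by *Elavl1*, had been deleted in adipocytes (*Adipo-HuR-/-*). By their labels, libraries A7, A8 and A12 are the 3 controls, and A24, A25 and A26 together with A29 and A31 are the 5 of *Adipo-HuR-/-* mice. A figure legend of the study gives these group sizes the other way round, and the labels were followed. Deletion was by Cre under the adiponectin promoter in mice with floxed HuR, so that cells of BAT other than adipocytes kept the gene. Controls were littermates counted as wild-type, which could carry Cre without floxed HuR, or 1 or both floxed alleles without Cre, and the labels do not say which control had which. Values per library are given below in that order, control first. The controls held 60622522, 51751002 and 50673814 counts, and the libraries labelled *Adipo-HuR-/-* held 18264754, 17558090, 67498055, 50893173 and 58727739, so that low values are least precise in A24 and A25.

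Mitochondrial carriers sit mostly in the inner membrane, where each exchanges or imports a narrow set of substrates such as ADP and ATP, phosphate, citrate, amino acids, acylcarnitines or cofactors. In brown adipocytes they feed fatty acids, pyruvate-derived intermediates and branched-chain amino acids to oxidation, and export citrate for fatty acid synthesis. Ucp1, which dissipates the proton gradient as heat, belongs to the same protein family but is named outside the Slc25a series, and is described here among other transporters.

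*Elavl1* (GRCm38 chr8:4285382-4325413, minus strand) did not separate the groups. Levels are in CPM, the counts scaled to a common library size with edgeR's TMM factors. Its level was 50.6, 48.0 and 49.2 CPM in control, against 61.9, 47.3, 43.4, 61.3 and 61.2 CPM. The groups overlapped, and the fitted log2 fold change was 0.16 with a standard error of 0.16 (edgeR quasi-likelihood test with Benjamini-Hochberg adjustment over all genes, adjusted p = 0.667). A sum over transcripts does not show whether the floxed exon was present. For this reason groups are named by their labels throughout, and every direction below is that of libraries so labelled.

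All 12 brown adipocyte markers examined had counts in every library, and they summed to between 15904 CPM in A25 and 34143 CPM in A8, with Fabp4 or Ucp1 as the most abundant. Skeletal muscle RNA was unevenly present. The 26 muscle markers summed to 4738, 3104 and 122 CPM in control, against 123, 76.2, 103, 109.7 and 596 CPM. Myh4 was the most abundant of them in A7 (1048 CPM), A8 (457) and A31 (106), and Des in the other libraries. None of the 26 was at 0 in A7, A8 or A31, whereas 4 were at 0 in A12 (Mybpc2, Myh1, Tnni1 and Xirp2), 8 each in A24 and A25, 3 in A26 and 5 in A29. All 26 had negative fitted log2 fold changes, with a median of -4.50, and 2, Myh7 and Myl1, were past the threshold, which is an adjusted p of 0.05 or less together with a fold change of 1.5 or more (adjusted p = 0.0474 for each). The libraries with much muscle RNA were 2 of the 3 controls and, at a lower level, A31, and values without A7, A8 and A31 are given below for some members.

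Among other cell types, the 5 erythroid markers summed to between 365 CPM (A26) and 1155 CPM (A24), with Hbb-bs the most abundant. The 7 macrophage markers summed to between 38.2 CPM (A8) and 143 CPM (A12), and the 5 endothelial markers to between 299 CPM (A24) and 518 CPM (A29). No marker of these lists was at 0 in any library and none was past the threshold. The groups did not overlap for Alas2, with a log2 fold change of -0.72 (adjusted p = 0.160), and for Pecam1, with 0.31 (adjusted p = 0.331). In bulk tissue, fewer cells of a type and less RNA per cell cannot be told apart.

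Summed over the family, the groups differed by less than the spread between libraries. The summed CPM was 5267, 5807 and 4269 CPM in control, against 5384, 5127, 4878, 5551 and 4456 CPM. The means were 5114 ± 781 (SD, n = 3) and 5079 ± 432 (SD, n = 5), a log2 ratio of -0.01. With total counts in place of TMM scaling the log2 ratio was 0.23, where the median of all genes also lay at 0.23. Without A7, A8 and A31 it was 0.29, from 1 control library only.

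Levels between members, given per kilobase of transcript as CPM per kb over all 8 libraries, were spread over several orders of magnitude. Slc25a1, which exports citrate, was highest at 567 ± 317 (SD), followed by the acylcarnitine carrier Slc25a20 at 330.4 ± 76.6, the glutathione carrier Slc25a39 at 306 ± 34.6 and the ADP/ATP carrier Slc25a5 at 289 ± 41.1. The phosphate carrier Slc25a3 (229 ± 54.1), the ADP/ATP carrier Slc25a4 (192 ± 50.2) and the NAD carrier Slc25a51 (139 ± 24.7) were also among the highest. Neighbours among these differed by less than the larger of their SDs, except Slc25a5 and Slc25a3, and Slc25a4 and Slc25a51.

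Members also differed in how much they varied within groups. Over the 39 members with at least 10 counts in every library, the pooled within-group SD of log2 CPM had a median of 0.27. It was largest for Slc25a1 (0.93), Slc25a10 (0.85), Slc25a34 (0.79) and Slc25a12 (0.67), and smallest for Slc25a23 (0.10), Slc25a39 (0.13) and the branched-chain amino acid carrier Slc25a44 (0.14).

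Of the 47 members, 42 had enough counts to be tested and 5 did not (Slc25a13, Slc25a21, Slc25a41, Slc25a43 and Slc25a54). By edgeR's quasi-likelihood test 0 of the 42 were past the threshold, where 105 of 14851 genes (0.707%) were. At an unadjusted p under 0.05 there were 9 of the 42 members, beside 2531 of 14851 genes (17.0%). DESeq2's Wald test put 2 members (4.76%) past the threshold, beside 818 of all genes (5.51%), and edgeR's likelihood ratio test 2, beside 655 (4.41%). Both named Slc25a12 and Slc25a23, at shares near the background. Limma voom put 0 members past it, beside 157 of all genes (1.06%). Without A12 the quasi-likelihood count was 1, Slc25a12. The count over all genes moved with single libraries, to 13 without A7, 190 without A12, 15 without A25, 10 without A26, 14 without A29 and 17 without A31. The p-values set the difference between groups against the spread between these libraries.

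Groups did not overlap for 4 of the 42 members (9.52%), beside 1701 of all genes (11.5%), so the share was near the background. Of these, 3 were higher in all libraries labelled *Adipo-HuR-/-* (Slc25a2, Slc25a28 and Slc25a42), where 5.37% of all genes were, and 1 was lower (Slc25a23), where 6.09% were. With 1 library left out the share of all genes moved in every case, and that of members in every case except without A29. Without A7, A8 and A12 in turn, groups did not overlap for 9, 13 and 10 members (21.4%, 30.2% and 23.3%), beside 19.0%, 26.5% and 17.2% of all genes. Without A24, A25 and A26 in turn the shares were 14.6%, 17.1% (7 members) and 11.9%, beside 17.0%, 13.3% and 14.4%. Without A29 they were 9.52% and 13.5%, and without A31 14.6% and 13.2%. The share of members was thus above that of all genes in 5 of the 8 and below it in 3. Fitted log2 fold changes were positive for 28 members and negative for 14, with a median of 0.14, against 7438 positive, 7413 negative and a median of 0.00 over all genes. Under total counts the family had 33 positive and 9 negative values with a median of 0.38, where the median of all genes lay at 0.23. Groups then did not overlap for 14 members (33.3%), beside 13.4% of all genes.

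**Figure D1:**
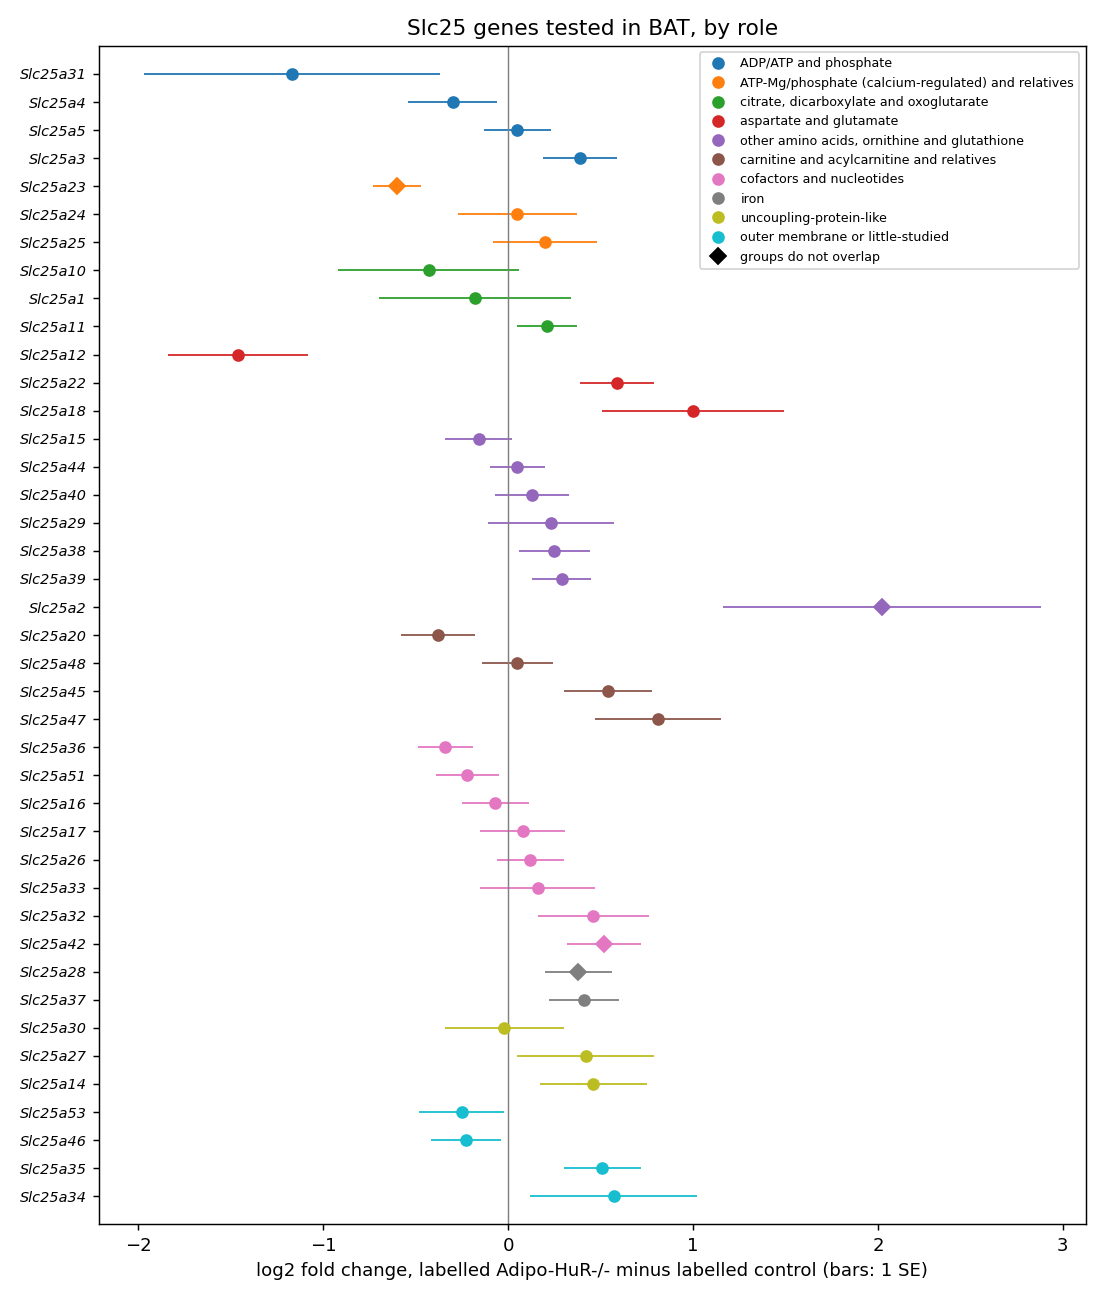
Fitted log2 fold change of 41 of the 42 tested Slc25 members (libraries labelled *Adipo-HuR-/-* over control), by role, with bars of 1 standard error and diamonds for members whose groups do not overlap. Values run from -1.46 (Slc25a12) to 2.02 (Slc25a2), and no member is past the threshold by edgeR's quasi-likelihood test.

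The ADP/ATP and phosphate carriers supply the substrates of ATP synthesis. Of the 4 members none was past the threshold, with adjusted p of at least 0.365. Slc25a4 was at 424, 563 and 259 CPM in control, against 379, 305, 291, 401 and 306 CPM. It was higher in A7 and A8, which held muscle RNA, than in A12, and the groups overlapped (log2 fold change -0.30, SE 0.24, adjusted p = 0.569). With the mean log2 CPM of the muscle markers as a covariate the log2 fold change was 0.05, and without A7, A8 and A31 it was 0.41. It was -0.02 without A8, -0.55 without A12, where the groups did not overlap (as for 17.2% of all genes), and -0.05 under total counts.

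Slc25a5 was at 326, 432 and 293 CPM in control, against 435, 334, 364, 352 and 328 CPM. The groups overlapped, with a log2 fold change of 0.05 (SE 0.18) that was -0.0007 without A7, -0.06 without A12 and -0.03 without A24. It was 0.23 without A8, 0.30 under total counts and 0.34 without A7, A8 and A31, and in these 3 settings the groups did not overlap. The same held for 26.5%, 13.4% and 53.0% of all genes, the last with 1 control library. Of the 31-base words in its transcripts 49.39% are shared with other genes, 30.35% with Gm5560 alone, so its counts may be divided with copies. Slc25a3, which imports phosphate and also copper, was at 295, 307 and 265 CPM in control and 504, 429, 331, 336 and 290.2 CPM in the libraries labelled *Adipo-HuR-/-*. A24 and A25 were highest and A31 lay within the control range (log2 fold change 0.39, SE 0.20, adjusted p = 0.365). The value was 0.14 without A24 and A25, and 0.80 with the transcript of the highest total in place of the gene. It was 0.62 under total counts and 0.47 without A31, and in these settings the groups did not overlap (as for 13.4% and 13.2% of all genes). Slc25a31, the ADP/ATP carrier of the germ line, had between 3 and 54 counts per library and a log2 fold change of -1.17 (SE 0.80). The value was -0.62 without A12, -2.16 without A29 and -2.02 with the muscle covariate. Its level was 1.13 CPM in A12 and 0.815 CPM in A29, against 0.0445 CPM in A26, and the cause of this spread was not tested.

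The ATP-Mg/phosphate carriers are activated by calcium and adjust the matrix pool of adenine nucleotides. Slc25a23 was the member with the lowest adjusted p, with 175, 164 and 156 CPM in control, against 101, 103, 118, 119 and 103 CPM. Every control library lay above every library labelled *Adipo-HuR-/-*, and the means were 165 ± 9.53 (SD, n = 3) and 109 ± 8.62 (SD, n = 5). The log2 fold change was -0.60 (SE 0.13), with an adjusted p = 0.0725 by the quasi-likelihood test, above the threshold. It was past the threshold by DESeq2's Wald test (adjusted p = 0.000227) and by edgeR's likelihood ratio test (adjusted p = 0.0282), and over all alternatives the adjusted p ranged from 0.000227 to 0.413. Its log2 fold change was between -0.64 and -0.37 under all of these. It was -0.57 with the muscle covariate and -0.50 without A7, A8 and A31, and causes of the difference were not tested.

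The other members of this role group, which holds calcium-regulated carriers and their relatives, were lower in level. Slc25a24 was at 3.29, 1.44 and 3.43 CPM in control, against 4.0, 2.28, 2.55, 2.73 and 2.59 CPM, with A24 highest. Its log2 fold change was 0.05 and became -0.25 without A8 and -0.11 without A24. Slc25a25 had a log2 fold change of 0.20 (SE 0.28), which was -0.0036 without A24. Slc25a41 had 1 count in A29 and 0 in the other libraries, and Slc25a54 had 0 in all 8. The limit that 0 counts allow, 3 counts, is 0.0445 CPM in A26 and 0.169 CPM in A24, and such limits, like the intervals below, cover counting error only.

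The citrate, dicarboxylate and oxoglutarate carriers link the tricarboxylic acid cycle to the cytosol. Slc25a1 was at 1375, 785 and 296 CPM in control, against 609.7, 1029, 431, 1216 and 321 CPM. Libraries of both groups lay at either end, and the highest was 4.64 times the lowest. Its log2 fold change of -0.18 (SE 0.52, adjusted p = 0.893) had no stable sign: it was 0.03 under total counts, 0.50 with the muscle covariate, 1.47 without A7, A8 and A31, 0.41 without A7 and -0.58 without A12. Slc25a10, which exchanges malate or succinate for phosphate, was at 40.7 CPM in A7 and between 7.79 and 22.5 CPM in the other libraries. Its log2 fold change of -0.43 (SE 0.49) rested on A7 and was 0.64 without that library. The oxoglutarate carrier Slc25a11 had a log2 fold change of 0.21 (SE 0.16), and Slc25a21 had 5 counts or fewer in every library.

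Of the aspartate and glutamate carriers, Slc25a12 exchanges aspartate for glutamate in the malate-aspartate shuttle and is best known from muscle and brain. Its level was 11.8, 7.87 and 2.63 CPM in control, against 2.48, 3.13, 2.99, 2.12 and 2.80 CPM. A7 and A8, which held the most muscle RNA, stood above the rest, and A12 lay among the libraries labelled *Adipo-HuR-/-*. The log2 fold change was -1.46 (SE 0.38, adjusted p = 0.0976 by the quasi-likelihood test), and over the alternatives the adjusted p ranged from 0.00898 to 0.986. Without A12 it was -1.86 and past the threshold (adjusted p = 0.0094). It was -0.96 without A7, -0.48 with the muscle covariate and 0.02 without A7, A8 and A31.

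Slc25a22, a glutamate carrier, was at 65.4, 113 and 92.0 CPM in control, against 150.0, 107, 146, 126 and 150.4 CPM. A25 lay within the control range, and the other 4 libraries with its label lay above all controls (log2 fold change 0.59, SE 0.20, adjusted p = 0.175). Slc25a18 had 4 to 48 counts per library and a log2 fold change of 1.00 (SE 0.49), and Slc25a13 had 1 to 13 counts and was not tested.

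Among carriers of other amino acids, ornithine and glutathione, 6 of 7 members had positive fitted values and none was past the threshold. Slc25a39 was at 402, 469 and 355 CPM in control, against 541, 466, 488, 511 and 487 CPM. A25 lay just under A8, so that the groups overlapped by this pair alone (log2 fold change 0.29, SE 0.16, adjusted p = 0.382). Slc25a2, an ornithine carrier, had 7, 6 and 0 counts in A7, A8 and A12, against 7, 18, 13, 9 and 21 counts. In CPM these were 0.113, 0.152 and 0 against 0.395, 0.854, 0.193, 0.170 and 0.318, without overlap, from few counts, and the adjusted p was 0.265 (log2 fold change 2.02, SE 0.86). The log2 fold change was 1.45 without A12, 2.55 without A8 and 3.06 with the muscle covariate. Without A7, A8 and A31 the control left has 0 counts, and the fitted value of 6.98 is no measure of the fold. Slc25a44 was nearly level, between 123 and 158 CPM over all libraries, with a log2 fold change of 0.05 (SE 0.15) that was -0.04 without A12. Slc25a15 and Slc25a38, carriers of ornithine and glycine, had log2 fold changes of -0.16 (0.09 under total counts) and 0.25 (0.50 under total counts and 0.12 without A25). Slc25a29, a carrier of basic amino acids, was at 0.23 (-0.02 without A7), and Slc25a40, a relative of Slc25a39, at 0.13 (-0.26 with the transcript of the highest total in place of the gene).

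Slc25a20 exchanges carnitine and acylcarnitine and brings fatty acids into the matrix. It was at 494, 865 and 702 CPM in control, against 602, 433, 518, 546 and 545 CPM. A8 and A12 were highest and A7 lay within the other group, so that the groups overlapped (log2 fold change -0.38, SE 0.20, adjusted p = 0.378). The value was -0.17 without A8, -0.57 without A7, where the groups did not overlap (as for 19.0% of all genes), and -0.12 under total counts. Its relatives Slc25a45 and Slc25a47 had log2 fold changes of 0.54 (SE 0.24) and 0.81 (SE 0.34), at no more than 4.0 and 2.32 CPM, with overlapping groups. Slc25a48 was near level at 0.05, or -0.09 without A12 and -0.02 without A24.

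The cofactor and nucleotide carriers were the largest role group, with 9 tested members, 1 of them without overlap (11.1%, beside 11.5% of all genes). Slc25a42, which brings coenzyme A into the matrix, was at 113, 167 and 162 CPM in control, against 206, 176, 275, 188 and 215 CPM. All 5 lay above the controls, with A26 highest and A7 lowest, at means of 147 ± 29.9 (SD, n = 3) and 212 ± 38.6 (SD, n = 5). The log2 fold change was 0.52 (SE 0.20, adjusted p = 0.219), from 0.15 to 0.77 over the alternatives, the lowest with the transcript of the highest total in place of the gene. Slc25a51 was at 416, 561 and 547 CPM in control, against 420.0, 396, 512, 426 and 423 CPM. A8 and A12 stood highest and A7 among the others (log2 fold change -0.22, SE 0.17). The value was 0.02 under total counts, -0.14 without A8 and -0.35 without A7, where the groups did not overlap (as for 19.0% of all genes).

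The pyrimidine nucleotide carrier Slc25a36 was at 47.2, 46.2 and 56.2 CPM in control, against 37.2, 38.3, 48.1, 37.5 and 35.1 CPM. Of these only A26 reached the control range (log2 fold change -0.34, SE 0.15, adjusted p = 0.273). In the same group Slc25a16, Slc25a17, Slc25a26, Slc25a32 and Slc25a33 had log2 fold changes of -0.07, 0.08, 0.12, 0.46 and 0.16, with overlapping groups. The value of Slc25a32 was 0.77 without A7, where the groups did not overlap (as for 19.0% of all genes), and 0.29 without A26. The sign turned for Slc25a16 without A8 (0.01) and A12 (0.05), for Slc25a17 without A7 (-0.08) and A24 (-0.02), for Slc25a26 without A12 (-0.03) and for Slc25a33 without A7 (-0.11).

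Both mitoferrins, which import iron, had positive values. Slc25a28 was at 23.1, 23.9 and 20.5 CPM in control, against 40.0, 28.1, 25.9, 25 and 27.7 CPM. The 5 lay above the controls, A24 well above the rest, and the log2 fold change was 0.38 (SE 0.18, adjusted p = 0.313), or 0.24 without A24. Slc25a37, the mitoferrin of erythroid cells, ranged from 7.95 to 9.49 CPM in control and from 8.80 to 14.7 CPM in the libraries labelled *Adipo-HuR-/-*, with a log2 fold change of 0.41 (SE 0.19) and overlap. The erythroid markers, none at 0, summed to 772, 971 and 1082 CPM in control, against 1155, 517, 365, 855 and 777 CPM, with Hbb-bs the most abundant, and their part in the value of Slc25a37 was not tested.

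The carriers named for their likeness to uncoupling proteins were low. Slc25a14 was at 1.17, 0.912 and 1.5 CPM in control, against 2.31, 1.38, 1.53, 1.52 and 1.58 CPM, with A24 highest (log2 fold change 0.46, SE 0.29). Slc25a30 was at 4.61, 3.09 and 5.06 CPM, against 1.86, 4.41, 5.10, 4.81 and 4.73 CPM, with A24 lowest, and its log2 fold change of -0.02 was 0.05 without A7, 0.13 without A12 and 0.16 without A24. Slc25a27 had a log2 fold change of 0.42 (SE 0.37), which was 0.22 without A12, 0.68 under total counts and 1.00 without A7, A8 and A31.

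Among outer membrane and little-studied members, Slc25a35 was at 111, 143 and 78.7 CPM in control, against 169, 149, 168, 177 and 125 CPM. A31 lay within the control range and the other 4 above it (log2 fold change 0.51, SE 0.21, adjusted p = 0.252), and the value was 0.31 without A12, 0.74 without A8, 0.76 under total counts and 1.07 without A7, A8 and A31. Of its 31-base words 27.46% are shared with other genes, mainly the neighbour Rangrf. Slc25a34 was at 20, 17.5 and 40.8 CPM, against 58.0, 21.3, 40.1, 16.1 and 57.8 CPM, and libraries of both groups were high and low (log2 fold change 0.57, SE 0.45, or 0.36 without A8, 1.04 without A12 and 0.37 without A24 or A31). Its sign turned without A7, A8 and A31 (-0.27). Slc25a46, which sits in the outer membrane, and Slc25a53 had log2 fold changes of -0.23 (0.04 without A12) and -0.25, and Slc25a43 had 8 counts or fewer per library.

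**Figure D2:**
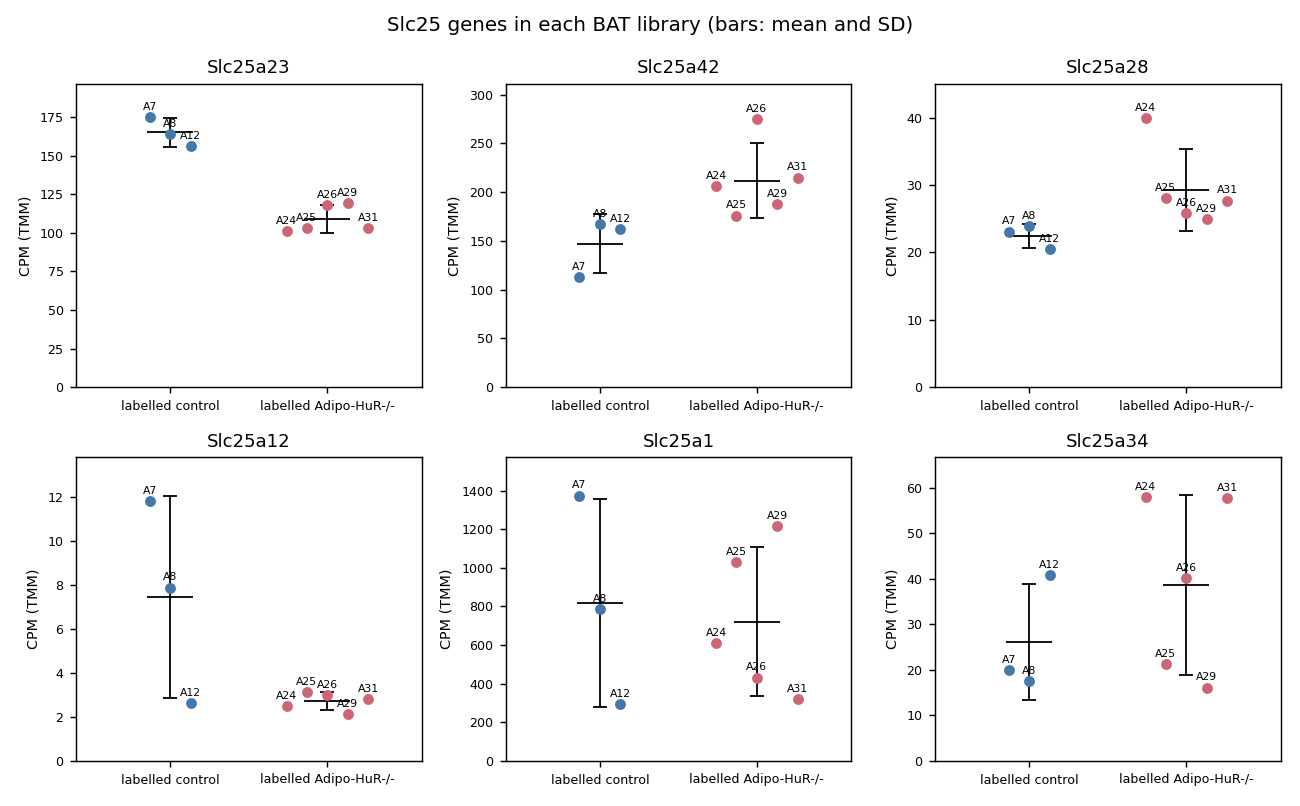
CPM of 6 Slc25 members in each library, with the mean and SD of each group. Slc25a23 lies between 156 and 175 CPM in control libraries and between 101 and 119 CPM in the others, while the groups overlap for Slc25a12, Slc25a1 and Slc25a34.

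The 232 transcripts of the members were tested as well, 137 of them passing the filter on low counts. By edgeR's quasi-likelihood test 0 were past the threshold, beside 4 of 41808 transcripts (0.00957%). An unadjusted p under 0.05 was found for 14 of the 137, beside 3415 of 41808 transcripts (8.17%). No other tool was run on transcripts. Groups did not overlap for 11 of them (8.03%), beside 7.51% of all transcripts, 7 higher and 4 lower in the libraries labelled *Adipo-HuR-/-*. Reads that fit several transcripts were divided between them before deposition, so that shares within a gene are uncertain. The main transcript of Slc25a23, Slc25a23-201, followed the gene, at 174, 169 and 158 CPM against 96.1, 94.3, 113, 116 and 103 CPM (log2 fold change -0.67, adjusted p = 0.227). The coding transcript Slc25a12-206 was at 4.85, 2.73 and 1.89 CPM in control, against 1.02, 0.821, 1.01, 0.889 and 0.813 CPM (log2 fold change -1.80, adjusted p = 0.252). The groups did not overlap, and A12, which for the gene lay among the others, was above them here. Slc25a12-207, annotated as subject to nonsense-mediated decay, went the other way for A12, at 6.27, 5.43 and 0.517 CPM in control, against 1.32, 2.11, 1.84, 0.762 and 1.83 CPM. There A12 was lowest and the groups overlapped (log2 fold change -1.37).

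Slc25a3 has 2 alternative exons of which a transcript carries either. The upstream exon, in Slc25a3-206, is at GRCm38 chr10:91122207-91122331 on the minus strand (125 bases), and the downstream exon, in Slc25a3-201 and Slc25a3-203, is at chr10:91121922-91122043 on the minus strand (122 bases). They encode alternative forms of the same stretch of the phosphate carrier and have 89 bases in common order. Both are shown because the share of counts with each exon differed between libraries.
Slc25a3 upstream exon: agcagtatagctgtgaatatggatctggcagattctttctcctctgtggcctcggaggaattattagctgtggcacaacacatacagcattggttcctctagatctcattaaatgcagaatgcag
Slc25a3 downstream exon: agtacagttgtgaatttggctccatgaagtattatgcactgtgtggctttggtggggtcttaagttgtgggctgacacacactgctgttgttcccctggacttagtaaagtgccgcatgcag

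The upstream exon made up 15.6% of counts with either exon in A7 (Wilson 95% interval 15.1 to 16.2), 29.1% in A8 (28.2 to 29.9) and 10.8% in A12 (10.3 to 11.4). In the libraries labelled *Adipo-HuR-/-* it made up 13.9% in A24 (13.2 to 14.7), 4.13% in A25 (3.72 to 4.58), 8.93% in A26 (8.52 to 9.35), 18.8% in A29 (18.2 to 19.4) and 13.9% in A31 (13.4 to 14.4). A8 was highest and A25 lowest, the groups overlapped, and the means were 18.5% ± 9.45 and 11.9% ± 5.58. A7 and A8 were the libraries with the most muscle RNA (muscle markers at 4738 and 3104 CPM), and its part in these shares was not tested. The difference of -6.57 points had an exact two-sided permutation p of 0.286 over the 56 ways to choose 3 of 8 libraries, of which the smallest possible is 0.0179. By alternatives chosen after seeing the data, it was -1.29 points without A8, at means of 13.2% and 11.9%, and -10.4 points without A12. These shares count Slc25a3-206 alone. With a transcript annotated as subject to nonsense-mediated decay added, which also holds the upstream exon, A25 was at 5.23% (4.77 to 5.72) and the difference was -6.12 points. Slc25a3-203 was at 114, 113 and 94.0 CPM in control and 286, 224, 144, 118 and 115 CPM in the others, with every value above the controls (exact permutation p = 0.125, or 0.250 adjusted over both comparisons). By edgeR's quasi-likelihood test over all transcripts its log2 fold change was 0.73 (SE 0.33, adjusted p = 0.629). A31, at 115 CPM, was barely above A7, at 114 CPM. With the highest transcript of each gene in place of the gene sum, the groups overlapped for Slc25a3. Slc25a3-203 is 1 of the 11 without overlap among the 137 tested, and the adjustment over both comparisons does not cover the others. The difference in means of Slc25a3-203, 70.6 CPM, was 43.5 CPM without A24. Slc25a3-201, which carries the same downstream exon, was at 115, 99.4 and 129 CPM in control. In the others it was at 113, 136, 101, 127 and 117 CPM, with overlapping groups (log2 fold change 0.06, SE 0.15).

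The Slc25a3 transcript annotated as subject to decay, with a longer upstream exon (chr10:91122108-91122331), had 0 counts in A7, A8 and A12 and 16, 96, 88, 97 and 16 counts in the others. Against a floor of 3 counts in each control library the mean was at least 26.7-fold higher, with an adjusted p = 0.229. A25 was highest, and without it the bound was 16.5-fold, while A31 alone was 3.74-fold above the floor. This transcript was chosen after its values were seen, and its small share of the gene makes it sensitive to how reads were divided.

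**Figure D3:**
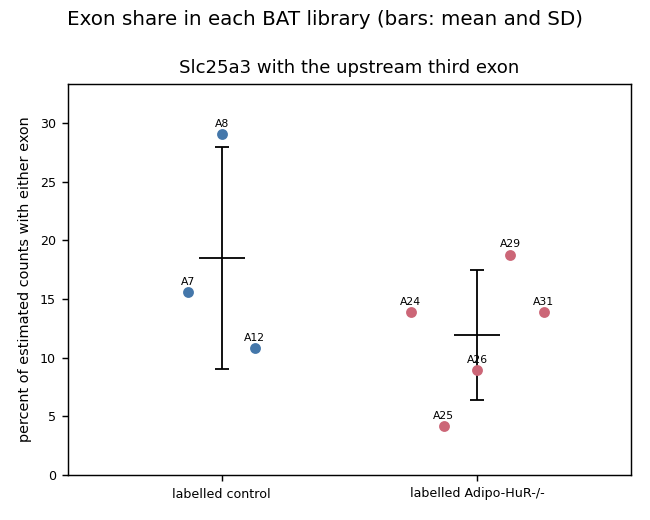
Share of Slc25a3 counts with the upstream alternative exon, as a percent of counts with either exon, in each library, with the mean and SD of each group. Values run from 10.8% to 29.1% in control libraries and from 4.13% to 18.8% in the others, and the groups overlap.

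Other transporters of mitochondrial metabolites were read for comparison. Of 15 tested, which include Ucp1 to Ucp3, the pyruvate carrier, sideroflexins and the voltage-dependent anion channels, none was past the threshold, and the median log2 fold change was -0.08. Ucp1 was at 4843, 11438 and 9483 CPM in control, against 10703, 4251, 7636, 7213 and 9475 CPM, with A25 and A7 lowest and the groups overlapping (log2 fold change -0.13, SE 0.35, adjusted p = 0.889). Vdac1 was the 1 without overlap (6.67%, beside 11.5% of all genes), at 375, 399.6 and 320.5 CPM against 312, 276, 264, 299.8 and 279 CPM (log2 fold change -0.35, adjusted p = 0.259). Of the 13 genes of the machinery that imports carriers into the inner membrane, none was past the threshold, and 12 had positive fitted values with a median of 0.30. Tomm70a, the receptor for carrier precursors, was at 55.8, 79.0 and 81.1 CPM in control and 105, 90.9, 106, 108 and 107 CPM in the others, and was the 1 of these without overlap (7.69%), with a log2 fold change of 0.52 (SE 0.16, adjusted p = 0.138).

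As HuR binds AU-rich sequences in 3′ untranslated regions, the pentamer ATTTA was counted in that of each tested member's highest coding transcript. It occurred in 31 of 42 members (73.8%), beside 66.0% of 13957 genes, and the longer TATTTAT, which contains it, in 16 (38.1%), beside 27.8%. These regions were longer in members, with a median of 1129.5 bases beside 994, and the median number of ATTTA per kb was 1.25 beside 1.20. Neither Slc25a23 nor Slc25a28 had an ATTTA, Slc25a42 had 2 in 2129 bases and Slc25a12 had 6 in 4092 bases, while Slc25a32 had 17 in 4739 bases and Slc25a46 had 13 in 3023 bases. A match of letters is a description and not a binding site.

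RefSeq promoters, from 250 bases before to 50 after each start on GRCm38.p6, were available for 36 members, with 46 promoters of 32851 in all. Read on both strands, CCAAT occurred in 22 of the 46 (47.8%), beside 37.4% of all promoters, and CACGTG in 8 (17.4%), beside 7.15%. TGACGTCA, the cAMP response element, occurred in 2 (Slc25a25 and Slc25a36), beside 1.79% of all promoters, TGCGCATGC, an NRF1 motif, in 1 (Slc25a31), beside 1.52%, and TCAAGGTCA, the motif of estrogen-related receptors, in 0, beside 0.423%. The promoters of Slc25a23 (chr17:57059814-57060113, minus strand) and Slc25a42 (chr8:70212232-70212531, minus strand) are shown because these members had the lowest adjusted p of those without overlap in each direction, with CCAAT on either strand in capitals. That of Slc25a42 holds 5, and 5 or more were found in 89 of all promoters (0.271%). That of Slc25a23 holds 1.
Slc25a23 promoter: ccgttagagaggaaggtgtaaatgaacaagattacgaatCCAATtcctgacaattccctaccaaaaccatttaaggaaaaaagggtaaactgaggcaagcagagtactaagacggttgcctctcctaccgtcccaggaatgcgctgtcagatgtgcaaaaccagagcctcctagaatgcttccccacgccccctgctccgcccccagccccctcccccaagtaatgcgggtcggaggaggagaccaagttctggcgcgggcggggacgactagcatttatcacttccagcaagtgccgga
Slc25a42 promoter: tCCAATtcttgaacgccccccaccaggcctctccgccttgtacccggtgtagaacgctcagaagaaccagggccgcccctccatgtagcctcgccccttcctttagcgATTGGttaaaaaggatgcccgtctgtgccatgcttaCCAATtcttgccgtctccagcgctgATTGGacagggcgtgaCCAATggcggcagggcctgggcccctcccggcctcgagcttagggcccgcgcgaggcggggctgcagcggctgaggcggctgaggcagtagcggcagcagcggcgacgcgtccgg

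Members lay on 19 chromosomes, and few were close to each other. Slc25a29 and Slc25a47 are 0.163 kb apart on chromosome 12 and on opposite strands, with log2 fold changes of 0.23 and 0.81. Slc25a23 and Slc25a41 are 2.06 kb apart on chromosome 17, Slc25a24 and Slc25a54 6.46 kb on chromosome 3, and Slc25a5 and Slc25a43 18.4 kb on the X chromosome. In each of these 3 pairs the second gene was too low to be tested, while the first was detected in every library.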

How the data were processed

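Values are estimated counts of single transcripts, as the authors deposited them for 8 BAT libraries, not normalized, on GRCm38. Reads fitting several transcripts had been divided between them. The methods of the study name CLC Genomics Workbench for read mapping. Transcript values were summed per gene symbol and rounded to whole numbers (79.1% of the sums lay no more than 0.02 from one). Genes were kept by filterByExpr, scaled by TMM and tested with the edgeR 4.0.16 quasi-likelihood F-test in R 4.3.3, with Benjamini-Hochberg adjustment over all genes kept; limma 3.58.1, DESeq2 1.42.0, Python 3.11.15, numpy 2.4.6, pandas 2.3.3, scipy 1.17.1 and matplotlib 3.10.9 were also used. GENCODE M21 gave positions and transcripts. Tests were tried on simulated data, but no result of this is given here and none of the statements above rests on it. Libraries of 1 group differed by more than counting noise (chi-square per gene of at least 88.6), so each was counted once.

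Values in every library were given for members past the threshold, without overlap between groups, or among the 8 highest per length. They were also given for members with 1 library far from the rest, and for Slc25a4 and Slc25a12 for muscle. Slc25a22 and Slc25a35, the highest of their roles, and Slc25a34, with the largest fitted change of its role, were added. Other members were given by role. Results of 1 member are not reported here, though it is in the counts and sums. Members, lists and this rule were chosen with earlier results of these data known. Alternatives were other scalings, filters, tests and thresholds, the highest transcript, a muscle marker covariate and libraries left out; those on Slc25a3 exons and single transcripts were chosen after seeing the data.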

Additional observations from a re-analysis of the deposited data

Results flagged for a closer look

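In the 5 libraries labelled *Adipo-HuR-/-*, 52 values were examined for a library far from the others, by the gap to the nearest library as a share of the whole range, with a limit of 0.71. The gap was over it for 7 values, and chance gives about 1 in 20 groups. In A24, a library with few counts, Slc25a14 (0.787, at 2.31 CPM with the nearest at 1.58), Slc25a24 (0.739, at 4.0 with the nearest at 2.73) and Slc25a28 (0.792, at 40.0 with the nearest at 28.1) were highest, and Slc25a30 (0.788, at 1.86 with the nearest at 4.41) was lowest. In A26, Slc25a36 (0.754, at 48.1 with the nearest at 38.3) and Slc25a51 (0.741, at 512 with the nearest at 426) were highest. The summed muscle markers were highest in A31 (0.910, at 596 CPM with the nearest at 123). Causes were not tested.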

How the results depend on the processing

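Genes past the threshold, 105 (36 higher and 69 lower; 96 and 25 under total counts), were 16 with the highest transcript in place of the gene sum, 15 with the muscle covariate, 818 by DESeq2's Wald test, 655 by the likelihood ratio test, 5 without A24 and A25, 4 without A7, A8 and A31, and 10 to 190 with 1 library left out. Slc25 genes past it, 0, were 2 by the Wald test, 2 by the likelihood ratio test and 0 to 1 with 1 library left out. Members without overlap, 4 (9.52%, beside 11.5% of all genes), were 14 under total counts (33.3%, beside 13.4%), 10 without A24 and A25 (24.4%, beside 21.1%), 27 without A7, A8 and A31 (61.4%, beside 53.0%), and 4 to 13 with 1 library left out; with fewer libraries groups overlap less by construction. The median log2 fold change, 0.14, was 0.38 under total counts and 0.32 without A7, A8 and A31, and the log2 ratio of summed CPM, -0.01, was 0.23 and 0.29. Without A7, A8 and A31 there is 1 control library, assumed to vary like the others.

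Of 41 tested members, signs turned under total counts for Slc25a1 (0.03), Slc25a15 (0.09), Slc25a16 (0.17), Slc25a30 (0.20) and Slc25a51 (0.02); with the highest transcript for Slc25a26 (-0.01), Slc25a40 (-0.26) and Slc25a51 (0.12); with the muscle covariate for Slc25a1 (0.50), Slc25a10 (0.24), Slc25a17 (-0.0047), Slc25a24 (-0.14) and Slc25a4 (0.05); under voom for Slc25a1 (0.04), Slc25a24 (-0.14) and Slc25a30 (0.02); without A24 and A25 for Slc25a24 (-0.06), Slc25a25 (-0.01), Slc25a30 (0.19) and Slc25a5 (-0.02); and without A7, A8 and A31 for Slc25a1 (1.47), Slc25a10 (0.70), Slc25a12 (0.02), Slc25a17 (-0.26), Slc25a24 (-0.26), Slc25a34 (-0.27) and Slc25a4 (0.41). With 1 library left out, log2 fold changes ran from -0.58 to 0.41 for Slc25a1, -0.77 to 0.64 for Slc25a10, -0.24 to 0.05 for Slc25a16, -0.08 to 0.25 for Slc25a17, -0.25 to 0.24 for Slc25a24, -0.0036 to 0.50 for Slc25a25, -0.03 to 0.37 for Slc25a26, -0.02 to 0.68 for Slc25a29, -0.19 to 0.16 for Slc25a30, -0.11 to 0.48 for Slc25a33, -0.04 to 0.13 for Slc25a44, -0.35 to 0.04 for Slc25a46, -0.09 to 0.16 for Slc25a48 and -0.06 to 0.23 for Slc25a5. The causes were not tested. Of the values for these members under the alternatives, 49 turned sign, 718 kept their direction and side of the threshold, and 5 came past it (Slc25a12 and Slc25a23). Slc25a2, Slc25a18 and Slc25a31 were not tested where at least 10 counts in every library were asked, nor was Slc25a2 without A24, A25 or A31. Low members such as Slc25a2 and Slc25a31 had 0 to 21 and 3 to 54 counts per library, and the part of counting error in their spread was not tested. By alternatives chosen after seeing the data, with 1 library left out the difference in the share of the upstream Slc25a3 exon ran from -10.4 to -1.29 points and that in Slc25a3-203 from 43.5 to 86.3 CPM. No paired analysis was possible because the labels pair no libraries across groups.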

Other observations

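Values set beside members after they were seen: Slc25a34 was high in A12, A24, A26 and A31 (40.8, 58.0, 40.1 and 57.8 CPM) and Ppargc1a, the coactivator of mitochondrial biogenesis, was highest in the same 4 libraries (186, 139, 145 and 84.0 CPM, against 45.0 to 65.2 CPM in the others). Slc25a1 was at its highest in A7 and lowest in A12, and Acly, which cleaves the citrate that Slc25a1 exports, was at 6837 CPM in A7 and 1229 in A12, with 839 CPM in A31, where Slc25a1 was at 321 CPM. Acly was at 2989, 2194, 3294, 2391 and 3563 CPM in A8, A24, A25, A26 and A29. Relations between these genes were not tested.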
